A study of Homo sapiens with 15 samples.

Results

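BHLHE40 and BHLHE41 encode DEC1 and DEC2, a pair of related basic helix-loop-helix repressors that bind E-boxes, the sequence CACGTG. In the circadian clock, BMAL1 and CLOCK activate the DEC genes through E-boxes, and the DEC proteins in turn repress E-box genes, which makes them an accessory feedback loop of the clock. BHLHE40 is also a known hypoxia-induced gene: HIF proteins with ARNT bind hypoxia response elements (HREs), whose core is ACGTG or GCGTG. The E-box contains this core on both strands, so the same letters can be read by both families of proteins.

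Occupancy at these genes was taken from CUT&RUN, an assay in which a nuclease carried by an antibody cuts out the DNA beneath a chromatin protein for sequencing, in 786-O cells, an established line of clear cell renal cell carcinoma in which HIF2α is stable. The cells carried a lentiviral shRNA with a control sequence (shControl, labelled WT) or an shRNA targeting BMAL1 (shBMAL1, labelled BMAL1 knockdown), both kept under puromycin selection, and the antibodies were rabbit monoclonals to BMAL1 and to HIF2α. Each antibody in each cell line was represented by 1 peak list over all its libraries, which in shControl cells came from 3 BMAL1 and 3 HIF2α libraries and in shBMAL1 cells from 2 and 3. The 4 IgG libraries were not analysed here, so the values below have no IgG background beside them. The study used 1 cell line for these libraries, and the peak lists hold no measure of how much BMAL1 was left.

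A peak was assigned to a DEC gene when its summit, the position of highest signal, lay nearest to a start site of that gene among all protein-coding genes, or lay within the gene. By this rule 14 of 4873 peaks belonged to the DEC genes, 13 to BHLHE40 and 1 to BHLHE41. They were 4 of 1812 BMAL1 peaks and 6 of 1204 HIF2α peaks in shControl cells, and 0 of 768 BMAL1 peaks and 4 of 1089 HIF2α peaks in shBMAL1 cells. Peaks that overlapped between lists merged into 8 sites, 7 at BHLHE40 and 1 at BHLHE41. No summit lay within the transcribed part of its gene, although the BHLHE40 promoter site (5020376 to 5021143) reached past the first start site at 5021122. As background, the same rule gave a peak to 8.83% of protein-coding genes in the shControl BMAL1 list and to 5.17% in the shControl HIF2α list. In shBMAL1 cells the shares were 3.94% for BMAL1 and 4.55% for HIF2α. A peak list holds no read counts, so the depth behind a peak is unknown, and with 1 list per group no difference between lists could be set against the spread between replicates. All differences between lists below are therefore descriptions without a test.

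The sequences under the summits are given first, because the positions of the E-boxes and HREs differ between the sites. All coordinates are those of hg19, and distances at BHLHE40 are counted from its first start site (chromosome 3, 5021122, plus strand; the gene ends at 5027008). Capitals mark every E-box, every HRE core and every AP-1 site (TGACTCA, which reads TGAGTCA on the other strand), on either strand. The first stretch is the BHLHE40 promoter from its E-box to the HIF2α summits, and the second surrounds the BMAL1 summit farther upstream.
BHLHE40 promoter, chr3:5020865-5021020, plus strand: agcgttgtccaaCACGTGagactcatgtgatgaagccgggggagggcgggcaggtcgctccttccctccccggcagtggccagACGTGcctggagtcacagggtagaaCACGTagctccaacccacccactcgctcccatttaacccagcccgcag
BHLHE40 upstream BMAL1 summit, chr3:5020573-5020652, plus strand: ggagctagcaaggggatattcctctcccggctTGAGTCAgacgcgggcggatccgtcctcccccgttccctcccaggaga

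The next stretches are the sites downstream of BHLHE40, in order along the chromosome. All lie between genes, beyond the 3′ end of BHLHE40. They show that the only E-box under a BMAL1 peak of BHLHE40 lies at the 15.6 kb site. The 44.1 kb site, where peaks of both proteins were called, holds HRE cores and an AP-1 site but no E-box. Each HIF2α site holds an HRE core, which at 47.4 kb is part of an E-box.
BHLHE40 at 6.8 kb, HIF2α, chr3:5027809-5027898, plus strand: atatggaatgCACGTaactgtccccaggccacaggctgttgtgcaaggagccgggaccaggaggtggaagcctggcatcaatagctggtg
BHLHE40 at 7.7 kb, HIF2α, chr3:5028731-5028850, plus strand: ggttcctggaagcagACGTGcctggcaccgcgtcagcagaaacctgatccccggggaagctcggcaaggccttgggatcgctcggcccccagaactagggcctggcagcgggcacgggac
BHLHE40 at 15.6 kb, BMAL1, chr3:5036632-5036731, plus strand: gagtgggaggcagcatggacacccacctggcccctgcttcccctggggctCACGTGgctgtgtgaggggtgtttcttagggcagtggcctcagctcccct
BHLHE40 at 16.4 kb, HIF2α, chr3:5037470-5037569, plus strand: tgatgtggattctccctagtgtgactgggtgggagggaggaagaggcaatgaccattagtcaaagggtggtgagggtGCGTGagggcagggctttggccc
BHLHE40 at 44.1 kb, both proteins, chr3:5065150-5065250, plus strand: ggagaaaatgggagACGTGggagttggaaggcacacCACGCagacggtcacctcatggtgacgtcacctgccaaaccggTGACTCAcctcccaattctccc
BHLHE40 at 47.4 kb, HIF2α, chr3:5068535-5068604, plus strand: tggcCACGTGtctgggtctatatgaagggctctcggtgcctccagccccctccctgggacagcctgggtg

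At BHLHE41 the only assigned peak was a BMAL1 peak upstream of the gene, which lies on the minus strand of chromosome 12 (26272963 to 26277970, first start site at 26277970). The sequence is printed on the strand of the gene, together with a BMAL1 peak beyond the 3′ end of BHLHE41 that the rule did not assign to it. The first holds an AP-1 site and an HRE core, and the second holds a pair of E-boxes.
BHLHE41 upstream, BMAL1, chr12:26278974-26279153, minus strand: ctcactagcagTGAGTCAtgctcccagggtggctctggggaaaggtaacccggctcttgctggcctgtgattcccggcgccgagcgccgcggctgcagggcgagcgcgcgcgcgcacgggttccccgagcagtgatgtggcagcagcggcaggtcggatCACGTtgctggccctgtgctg
Beyond the BHLHE41 3′ end, BMAL1, chr12:26267429-26267581, minus strand: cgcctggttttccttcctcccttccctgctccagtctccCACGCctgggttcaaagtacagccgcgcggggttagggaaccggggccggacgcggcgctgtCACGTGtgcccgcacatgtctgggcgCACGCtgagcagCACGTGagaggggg

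In shControl cells, HIF2α occupied BHLHE40 at 6 positions, from the promoter to 47.4 kb downstream of the start site, over a span of 47.6 kb between the outermost summits. The promoter peak (5020536 to 5021124) had its summit 112 bp upstream of the start site, in an intron of the antisense long noncoding RNA BHLHE40-AS1. Its fold enrichment over the local background, a ratio given by the authors, was 11.3, and it ranked 94 of 1204 by p, within the strongest 7.81% of the list. The peak at 44.1 kb (5065081 to 5065358) had a fold enrichment of 12.1 and ranked 211, and the peak at 16.4 kb (5037407 to 5037649) had a fold enrichment of 8.38 and ranked 213. These 3 peaks were among the 241 strongest of the list. The peak at 7.7 kb (5028644 to 5028966) had a fold enrichment of 6.60 and ranked 293. The peaks at 6.8 kb (5027754 to 5027900) and 47.4 kb (5068535 to 5068679) were weak, with fold enrichments of 3.93 and 5.27 and ranks of 1170 and 1120. Over the whole list the median fold enrichment was 6.87. The weakest of the 6, at 6.8 kb, had a −log10 p of 10.0, where the lowest value in the list was 8.83.

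BHLHE40 was among the genes with the most HIF2α peaks. Of 1041 protein-coding genes with a HIF2α peak in shControl cells, 5 had 6 or more. ARNT had 14, EPAS1 had 11, and BHLHE40, MYC and NDRG1 had 6 each. EPAS1 and ARNT encode HIF2α itself and its partner, and what lies behind their many peaks was not tested. The number of peaks a gene can collect grows with the stretch of chromosome that lies nearest to its start sites. This stretch was 154 kb for BHLHE40, longer than for 77.2% of protein-coding genes (median 55.1 kb). Counted instead within 50 kb of the first start site, BHLHE40 again had 6 HIF2α peaks. This window has the same length for all genes, but a peak in it can count for several neighbouring genes. Only CTSK, a neighbour of ARNT, with 14 and ARNT with 8 had as many HIF2α peaks as BHLHE40 or more. In shBMAL1 cells BHLHE40 had 4 HIF2α peaks by either count. Of 917 genes with a HIF2α peak there, 20 had 4 or more by the rule, and 5 genes did within 50 kb. The assignment rests on protein-coding start sites. When start sites of all gene types were counted in shControl cells, only the promoter peak stayed with BHLHE40. Of the 6, 4 went to its antisense RNA BHLHE40-AS1 and 1 to the pseudogene RNF10P1.

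**Figure D1:**
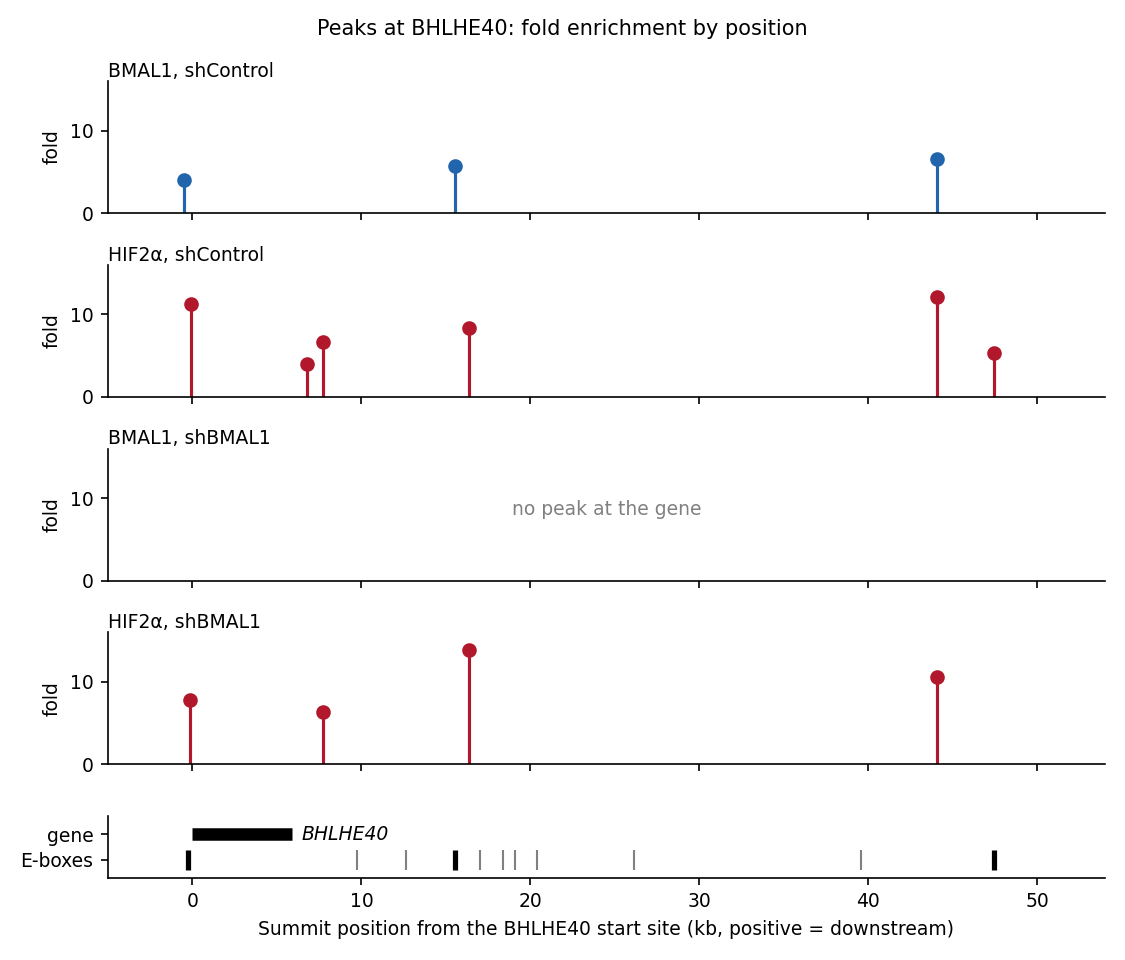
Fold enrichment of each BHLHE40 peak (vertical axis, ratio to the local background) against the distance of its summit from the start site (horizontal axis, kb), 1 panel per peak list, with the gene as a black bar and E-boxes as ticks, thick where under a peak. BMAL1 peaks in shControl cells stand at 3 positions and HIF2α peaks at 6, and in shBMAL1 cells HIF2α peaks stand at 4 positions and BMAL1 peaks at none.

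In shControl cells, BMAL1 was called at BHLHE40 at 3 positions, and all 3 peaks were weak. The upstream peak (5020483 to 5020678) had its summit 509 bp before the start site, a fold enrichment of 4.06 and rank 1744 of 1812. The peak at 15.6 kb (5036607 to 5036821) had a fold enrichment of 5.68 and ranked 1473, and the peak at 44.1 kb (5065106 to 5065249) had a fold enrichment of 6.49 and ranked 1568. All were under the median fold enrichment of the list, 7.13, and all were among its 362 weakest by p (ranks 1451 to 1812). Of 1780 genes with a BMAL1 peak in that list, 22 had 3 or more. Counted within 50 kb of the first start site, however, 296 genes had 3 or more BMAL1 peaks. This number therefore did not set BHLHE40 apart as the shControl HIF2α number did.

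At BHLHE41 the single BMAL1 peak (26278944 to 26279173) had its summit 1054 bp upstream of the first start site, in introns of SSPN, for which it therefore also counts, and of a long noncoding RNA. Its fold enrichment was 4.47 and it ranked 1739 of 1812, as weak as the upstream peak of BHLHE40. No HIF2α peak was assigned to BHLHE41 in either cell line, and no BMAL1 peak in shBMAL1 cells. The rule gave BHLHE41 little room: SSPN, which encodes the membrane protein sarcospan, runs the other way and has 2 of its annotated start sites inside BHLHE41, so that only 7.09 kb lay nearest to a BHLHE41 start site. The BMAL1 peak at 26267294 to 26267686 was assigned to SSPN for this reason. Its summit lay 5.4 kb beyond the 3′ end of BHLHE41 and 7.4 kb from the nearest SSPN start site. It was the stronger of the pair, with a fold enrichment of 8.64 and rank 827 of 1812. It was not found in shBMAL1 cells and overlapped no HIF2α peak.

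**Figure D2:**
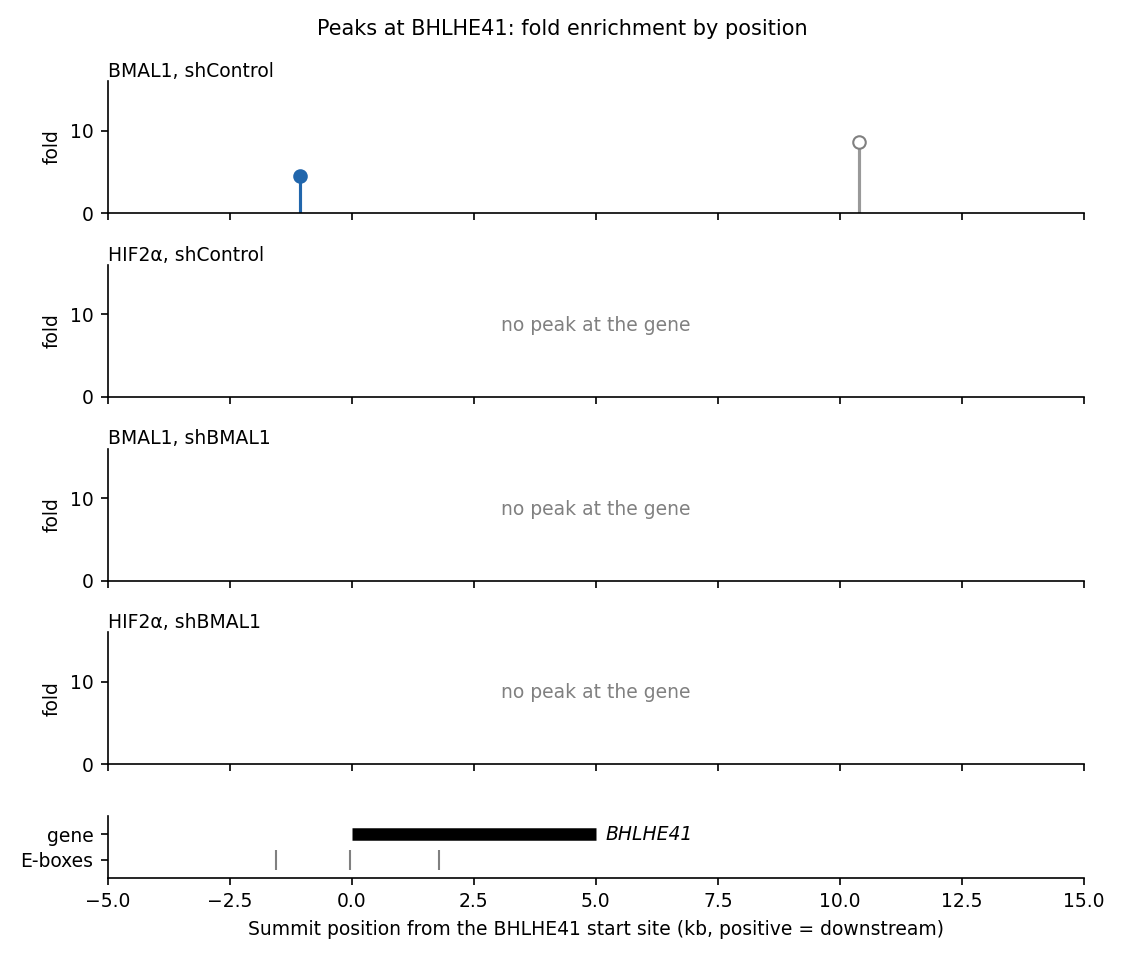
Fold enrichment of peaks around BHLHE41 (vertical axis, ratio to the local background) against the distance of the summit from the first BHLHE41 start site (horizontal axis, kb, counted along the gene), 1 panel per peak list. The filled point is the BHLHE41 peak at a fold enrichment of 4.47, the open point is the peak assigned to SSPN at 8.64, and ticks mark the 3 E-boxes within 2000 bp of the start site, none of them under a peak.

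The next comparison asked whether BMAL1 and HIF2α sat at the same positions. Of the 4 DEC gene BMAL1 peaks in shControl cells, 2 overlapped a HIF2α peak, beside 18.5% of all BMAL1 peaks. Of the 6 HIF2α peaks, 2 overlapped a BMAL1 peak, beside 27.9% of all HIF2α peaks. Both shared sites were at BHLHE40, and they differed in geometry. At 44.1 kb the BMAL1 peak lay wholly within the HIF2α peak and the summits were 31 bp apart, where the median over the 336 overlapping pairs of peaks was 40.5 bp. At the promoter the peaks overlapped by 143 bp, which was 73.0% of the BMAL1 peak and 24.3% of the HIF2α peak, and the summits were 397 bp apart. Among all 336 overlapping pairs 19 (5.65%) had summits at least that far apart.

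The other BHLHE40 positions were called for 1 protein only. The BMAL1 peak at 15.6 kb and the HIF2α peak at 16.4 kb were neighbours without overlap. The HIF2α peak began 586 bp after the end of the BMAL1 peak, and the summits were 838 bp apart. The HIF2α peaks at 6.8, 7.7 and 47.4 kb had no BMAL1 peak beside them.

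The sequence under the summits was then read. Within 200 bp centred on the summit, an E-box was present at 1 of the 4 BMAL1 peaks and 1 of the 6 HIF2α peaks, beside 12.9% of all BMAL1 windows and 6.81% of all HIF2α windows. At 15.6 kb the E-box was centred 2.5 bp from the BMAL1 summit. Of all 1812 BMAL1 peaks 27 (1.49%) had an E-box centred within 10 bp of the summit. At 47.4 kb the E-box was centred 27.5 bp from the HIF2α summit. An HRE core was present in the windows of all 6 HIF2α peaks, beside 70.8% of all HIF2α windows, and in those of all 4 BMAL1 peaks, beside 58.1%, although at the upstream BHLHE40 site the core lay outside the peak itself. In shBMAL1 cells the HIF2α windows held an HRE core at 4 of 4 peaks, beside 69.5% of all windows, and an E-box at 0, beside 6.24%. The core nearest to the HIF2α summit lay 35.0 bp away at the promoter, 63.0 bp at 6.8 kb, 83.0 bp at 7.7 kb, 29.0 bp at 16.4 kb and 18.0 bp at 44.1 kb.

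**Figure D3:**
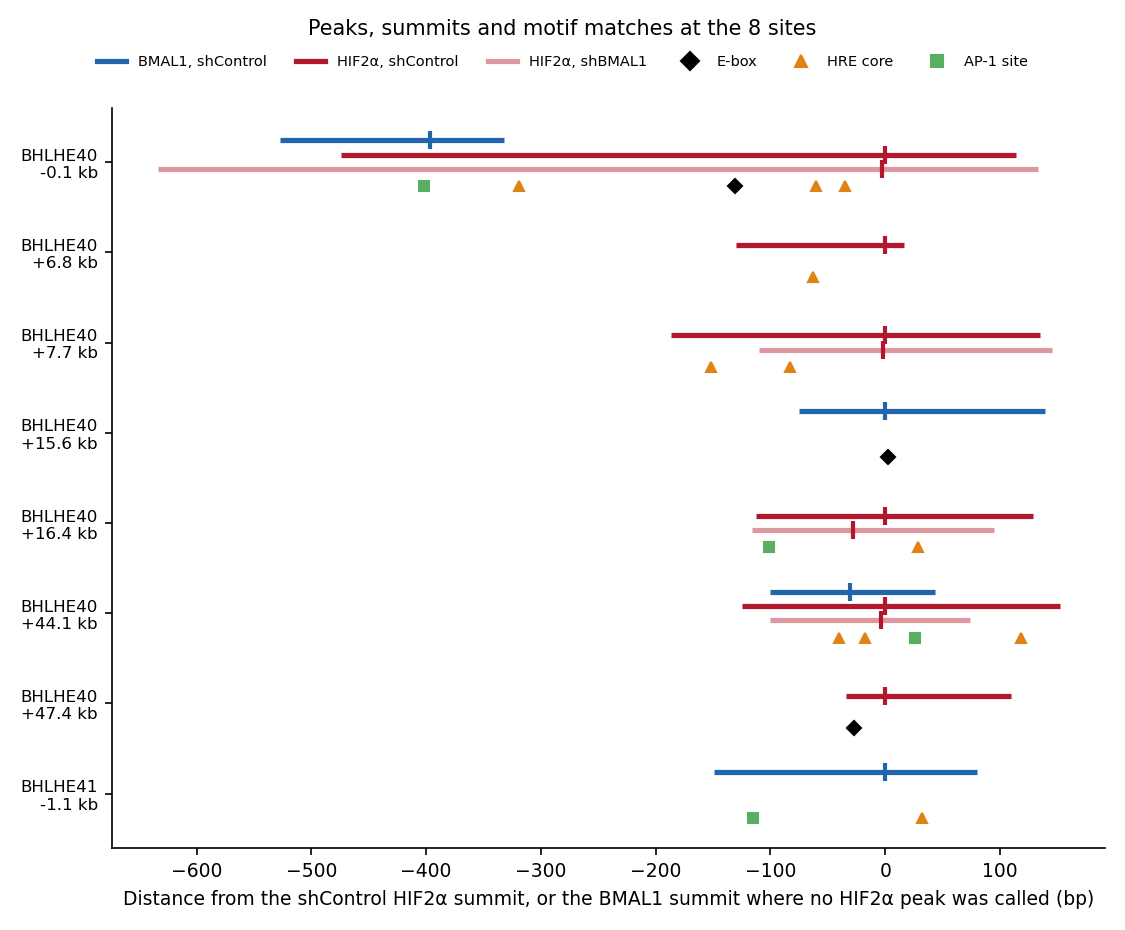
Extent of each peak (bars), its summit (vertical mark) and motif matches (symbols) at the 8 sites, in bp from the shControl HIF2α summit or, where there was none, the BMAL1 summit, with HRE cores inside an E-box drawn as the E-box alone. The E-box at 15.6 kb sits at the BMAL1 summit, the promoter E-box lies under the HIF2α peaks and outside the BMAL1 peak, and the 3 summits at 44.1 kb fall among HRE cores and an AP-1 site.

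The promoter of BHLHE40 holds an E-box whose outer base is 245 bp upstream of the start site, but the BMAL1 peak did not reach it. The E-box began 199 bp after the end of that peak, and it lay under the HIF2α peaks of both cell lines. The BMAL1 summit was instead 5.0 bp from the centre of an AP-1 site, a sequence bound by JUN and FOS proteins and found in 13.0% of all BMAL1 windows. A GC box (GGGCGG on either strand), found in 61.5% of them, was centred 6.5 bp from the same summit. An AP-1 site was also present at 44.1 kb, 57.0 bp from the BMAL1 summit and 26.0 bp from the HIF2α summit. In the stretch of 48.3 kb that holds all 7 BHLHE40 sites there were 11 E-boxes, of which 1 lay under a BMAL1 peak, 2 under a shControl HIF2α peak, and 8 under no peak in any list. At BHLHE41, 3 E-boxes lay within 2000 bp of the first start site, the nearest of them 48 bp upstream, and none was under a peak. For comparison, 7.26% of 35116 RefSeq promoters (GRCh38, 250 bp before to 50 bp after a start site) hold an E-box and 48.4% hold an HRE core, and those of BHLHE40 and BHLHE41 each hold 1 E-box. These matches describe the letters in the windows and not whether a protein used them.

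Depletion of BMAL1 was then compared. None of the 4 DEC gene BMAL1 peaks was found again in the shBMAL1 list, where a peak counted as found when it overlapped by at least 1 bp. Over the whole list 38.7% were found again, and among the 362 weakest by p, which held all 4, 7.18% were. The shBMAL1 BMAL1 list was also the shortest and was drawn from 2 libraries in place of 3, and the part of either in these 4 absences was not tested.

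Of the 6 HIF2α peaks at BHLHE40, 4 were found again in shBMAL1 cells, beside 57.7% of all HIF2α peaks. They were the promoter and the sites at 7.7, 16.4 and 44.1 kb. The peaks at 6.8 and 47.4 kb, which were not found again, were among the 236 weakest of the shControl list, of which 26.7% were found again. Of the 241 strongest 95.0% were found again, and the 3 BHLHE40 peaks in that range were among them. The summits moved little between the cell lines, by 3 bp at the promoter, 2 bp at 7.7 kb, 28 bp at 16.4 kb and 4 bp at 44.1 kb (median over 698 such pairs of peaks, 26.5 bp).

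The order of the 4 HIF2α sites differed between the lists. In shControl cells the promoter ranked first among them by p, and in shBMAL1 cells the site at 16.4 kb did. The promoter peak ranked 94 of 1204 (7.81%) in shControl cells and 235 of 1089 (21.6%) in shBMAL1 cells, with fold enrichments of 11.3 and 7.86. The peak at 7.7 kb ranked 293 (24.3%) and 456 (41.9%), with fold enrichments of 6.60 and 6.39. The peak at 44.1 kb ranked 211 (17.5%) and 312 (28.7%), with fold enrichments of 12.1 and 10.6. The peak at 16.4 kb ranked 213 (17.7%) and 184 (16.9%), with fold enrichments of 8.38 and 13.9. The promoter and the sites at 7.7 and 44.1 kb thus held a lower rank and fold in the shBMAL1 list. The same was true of 307 of all 698 such pairs of HIF2α peaks, so these shifts did not set BHLHE40 apart. Fold and p are relative to the background and depth of each list, and the size of these shifts could not be set against replicate error.

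**Figure D4:**
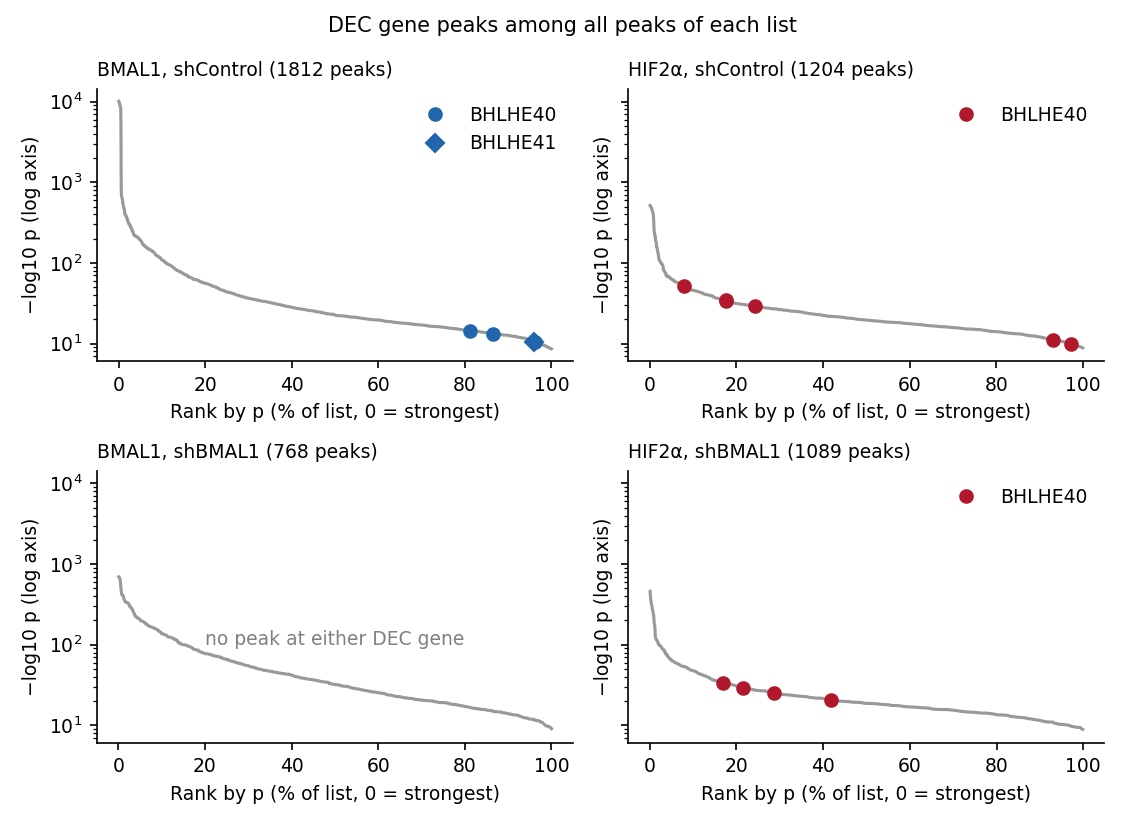
The −log10 p of every peak (vertical axis, log scale) against its rank as a percentage of its list (horizontal axis, 0 is strongest), with the DEC gene peaks marked. The 4 BMAL1 peaks sit at 81.3% to 96.2% of the shControl list, the 6 HIF2α peaks at 7.81% to 97.2% of theirs, and the 4 HIF2α peaks of shBMAL1 cells at 16.9% to 41.9%, with points at nearly equal ranks drawn over each other.

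The DEC genes were set beside other genes of the same pathways. Of 17 genes of the clock loop, BMAL1 peaks in shControl cells fell at 11. They were the repressors PER1, PER2, PER3, CRY1, CRY2 and CIART, the nuclear receptors NR1D1 and NR1D2, and the bZIP output factors DBP, TEF and HLF. Their strongest BMAL1 peaks ranked from 4.91% (PER1) to 55.0% (HLF) of the list, with a median of 12.6%. The strongest peaks of BHLHE40 and BHLHE41, at 81.3% and 96.0%, ranked behind all 11. Fold enrichment at these peaks ran from 7.85 at HLF and 8.01 at DBP to 17.0 at CIART and 26.9 at PER1, against at most 6.49 at BHLHE40. In shBMAL1 cells 5 of the 17 genes kept a BMAL1 peak (NR1D1, PER1, PER2, PER3 and TEF), ranked from 81.6% to 98.0%. HIF2α peaks were at PER1 and PER2 in shControl cells and at NFIL3, PER1, PER2 and TEF in shBMAL1 cells. The strongest HIF2α peaks of PER2 and PER1 ranked at 21.8% and 76.7%, behind the promoter of BHLHE40 at 7.81%.

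Among 17 hypoxia genes, HIF2α peaks in shControl cells fell at 10. They were the glucose transporter gene SLC2A1, the glycolytic genes LDHA and PGK1, PDK1, which restrains pyruvate oxidation, the growth factor genes VEGFA and TGFA, the oxygen sensor gene EGLN3, the demethylase gene KDM3A, the collagen hydroxylase gene P4HA1, and NDRG1. Their strongest peaks ranked from 2.33% (TGFA) to 66.7% (PDK1), with a median of 9.84%, and BHLHE40 at 7.81% lay within this range. In shControl cells 5 of them also carried a BMAL1 peak (LDHA, NDRG1, PDK1, SLC2A1 and TGFA), ranked from 31.7% to 81.1% with a median of 76.6%, and in shBMAL1 cells 0 did. In shBMAL1 cells 9 of the 17 had a HIF2α peak, which were EGLN1 and those above other than PDK1 and VEGFA. BHLHE40 thus shared with these 5 genes, among the 17, a HIF2α peak together with a BMAL1 peak in shControl cells. PER1 and PER2 of the clock loop had both as well. The share of all protein-coding genes with both is not given here, so this pattern has no background beside it. Like the 5 hypoxia genes, BHLHE40 had no BMAL1 peak in shBMAL1 cells. That absence is common, as 3.94% of all protein-coding genes had a BMAL1 peak there. Of the 11 closest relatives of the DEC genes, the HES, HEY and HELT repressors, 0 had a BMAL1 peak in either cell line. HES1, a target of Notch signalling, had the only HIF2α peak among them, in shControl cells, at 77.8% of the list. The shares over all protein-coding genes were also low, at 8.83% (shControl) and 3.94% (shBMAL1) for BMAL1. For HIF2α they were 5.17% and 4.55%. Among only 11 genes, counts of 0 and 1 therefore do not set these relatives apart from other genes.

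**Figure D5:**
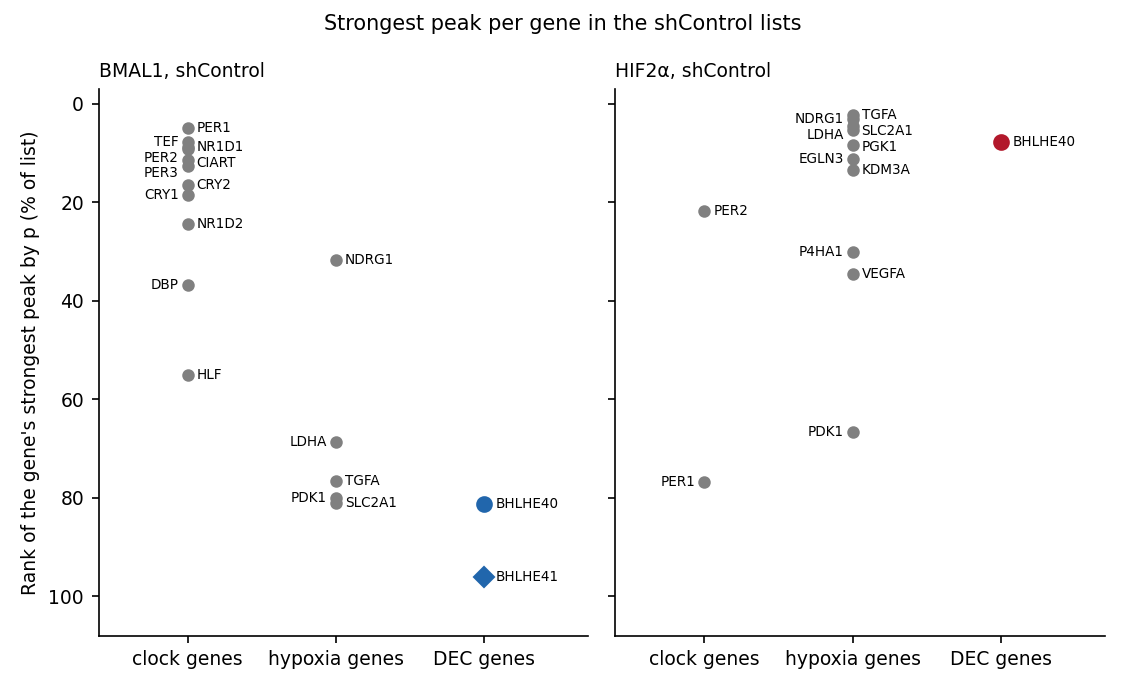
Rank of the strongest peak of each gene by p, as a percentage of its list (vertical axis, strongest at the top), for clock genes, hypoxia genes and DEC genes with a peak in the shControl BMAL1 (left) and HIF2α (right) lists. BHLHE40 at 81.3% and BHLHE41 at 96.0% stand below the 11 clock genes on the left, and BHLHE40 at 7.81% stands among the hypoxia genes on the right.

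Across all protein-coding genes, 177 others had peaks in the same 3 lists as BHLHE40, that is in all but BMAL1 in shBMAL1 cells. Those most like it, by the distance between the percentile ranks of their strongest peaks over the 3 lists, were EGFR (7.6 percentile points), CACNA2D3 (8.1), CACNA1C (9.1), HPCAL1 (9.2) and P4HA2 (9.9). BHLHE41 shared its pattern, a BMAL1 peak in shControl cells and no other, with 721 genes. The nearest to it by rank in that 1 list were GRK6, ITFG2, MIER1, HSF2 and UBE4B, all within 0.3 percentile points.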

How the data were processed

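According to the methods and the processing notes of the submitters, the authors mapped read pairs to hg19 and to the yeast genome using Bowtie2 2.5.3, removed duplicates with SAMtools 1.6 and sambamba, called peaks with MACS2 2.2.9.1 on a threshold of p and removed blacklisted regions with bedtools 2.31.1. The deposited lists give per peak a fold enrichment (ratio to the local background), a −log10 p by MACS2, a whole-number score that was not used and the summit. The lowest −log10 p deposited by the authors was 8.64 to 9.07 over the 4 lists. This is stricter than the p threshold that the paper gives for peak calling, and the sources used here give no reason. Weaker peaks may therefore be missing from the lists. Whether IgG served as control in peak calling is not given in the sources used here.

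Summits were assigned with GENCODE lift37 release 44 in Python 3.11.15, counting from 1, and all 4873 peaks lay within the GRCh37 chromosomes. Peaks overlapped at 1 bp or more and were ranked by −log10 p within their own list. Motifs were counted on both strands with pysam 0.24.0, and an E-box also counts as an HRE core. Motif search, assignment and overlap were checked on planted and brute-force cases. No test was run, because each group has 1 pooled list. The DEC genes and the gene lists were chosen with earlier results of these data known. Named genes were the DEC genes, pathway genes with a peak, and the 5 genes nearest in rank over the same lists. CTSK, ARNT, EPAS1 and MYC were named after their values were seen. Of the hypoxia list, 1 gene is not reported here.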

Additional observations from a re-analysis of the deposited data

How the results depend on the processing

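For the 16 results above 0, 23 of 40 alternative values kept within 1.5 times the value given or, for ranks, within its 95% Wilson interval. That interval served only as a yardstick and measures no spread between replicates. The other 7 results were 0, which most alternatives could not raise, and are not counted. With the nearest start site of any gene type, BHLHE40 kept 1 BMAL1 and 1 HIF2α peak in shControl cells and 1 HIF2α peak in shBMAL1 cells, and BHLHE41 kept 0. By construction the other BHLHE40 peaks then went to BHLHE40-AS1 or, at 47.4 kb, to RNF10P1, whose starts were nearer. At a −log10 p of at least 20, or in lists cut to the strongest 768 peaks, both DEC genes had 0 BMAL1 peaks. In lists of that length 0 BMAL1 and 0 HIF2α peaks were shared. With an overlap of 50% of each peak 1 of each was shared, at 44.1 kb. Ranked by fold, the strongest BMAL1 peaks of BHLHE40 and BHLHE41 stood at 58.9% and 90.3% of the shControl list, and the strongest HIF2α peak of BHLHE40 at 5.60% of the shBMAL1 list. Over whole peaks, 2 shControl and 1 shBMAL1 HIF2α peaks held an E-box, and in 100 bp windows 2 shBMAL1 HIF2α peaks held an HRE core. Results without single replicates could not be computed from lists pooled over libraries. No paired analysis was possible because each group has 1 list with no library named in it.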

Other observations

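The peaks next beyond those assigned to the DEC genes were also read. Upstream of BHLHE40, 110.9 kb from its start site and 53.9 kb from the nearest start site of ITPR1, which encodes a calcium release channel, a BMAL1 peak was called in both cell lines. In shControl cells it had a fold enrichment of 9.81 and ranked 347 of 1812, ahead of all 3 BMAL1 peaks of BHLHE40. In shBMAL1 cells it had a fold enrichment of 9.78 and ranked 565 of 768. Its rank was thus at 19.2% of the shControl list and 73.6% of the shBMAL1 list. The median fold enrichment was 7.13 in the shControl list and 10.5 in the shBMAL1 list, so near-equal folds do not mean equal standing. The peak held an E-box centred 35.5 bp from the shControl summit and 30.5 bp from the shBMAL1 summit. The nearest HIF2α peak upstream of BHLHE41 lay 162.9 kb from its first start site, in an intron of SSPN, with a fold enrichment of 11.3 and rank 181 of 1204 in shControl cells and a fold enrichment of 15.1 and rank 118 of 1089 in shBMAL1 cells. Which genes these sites act on was not measured here.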
